A study of Mus musculus with 49 samples.

Results

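Verteporfin and its solvent DMSO were compared in mouse hepatocytes that had been kept in monolayer culture for 1 week. The comparison rests on 4 of the 49 libraries of the series, 2 with verteporfin and 2 with DMSO, chosen by their labels, and it covers every gene rather than a selected pathway. Of 24080 genes with at least 1 count in the 4 libraries, 10400 had enough counts to be tested. The question behind the comparison was what blocking Yap activity does to hepatocytes that lose their identity in culture, and the values here extend it to stress of the endoplasmic reticulum (ER), to lipid metabolism and to the transcripts of mitochondria.

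Verteporfin is a porphyrin-type photosensitizer that also disrupts the contact between the co-activator Yap and the TEAD factors that bring Yap to DNA. Yap is held in the cytoplasm of quiescent hepatocytes by the Hippo kinases, and it enters the nucleus when cells are spread on a stiff surface, where it turns on genes such as Ccn1 and Ccn2. Plated hepatocytes gradually lose the enzymes and secreted proteins that define the liver and gain features of progenitor and mesenchymal cells.

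The hepatocytes came from livers of C57BL/6 wild-type mice aged 10 weeks, were freed by collagenase, separated from other liver cells by centrifugation and plated on type I collagen in a medium with epidermal growth factor (EGF). The verteporfin group received 0.3 µM verteporfin and the other group DMSO for 7 days. No transgene or deletion was present in either group. The study's reporting summary describes the experiment as having been repeated, which would give 1 library of each group a run. Whether a run used its own mice, and whether the replicate number marks the run, is not stated in the sources used here, so every p-value measures the spread between these libraries only. For reference, 3 libraries of untreated hepatocytes at 1 week, 3 of fresh hepatocytes and the rest of the 25 libraries of fresh and first-culture hepatocytes were read on the same scale.

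Values are given as counts of unique molecular identifiers (UMIs), each standing for 1 captured 3′ end of a transcript, and as CPM, the counts scaled to a common library size. The 4 libraries held 1436786 to 1680009 counts, so that 3 counts, taken as the floor of detection, correspond to 1.79 to 2.09 CPM before scaling. Verteporfin replicate 1 stood apart: 20424 genes had a count there against 16340 to 17529 in the other 3 libraries, and genes silent in untreated cultures at 4 days and 1 week took 0.429% of its counts against 0.0619% to 0.153%. The part of this in the results was not tested. Values without that library are given for some genes and lists only, and other values also shifted without it. The 10 hepatocyte markers all had counts, with sums of 8535 to 9159 CPM with verteporfin and 9105 to 9589 CPM with DMSO. Markers of other liver cells summed to 421 to 523 against 402.3 to 402.4 CPM for 8 cholangiocyte markers, 31.1 to 40.6 against 17.3 to 26.4 CPM for 10 endothelial markers, 26.4 to 37.2 against 14.3 to 27.1 CPM for 12 stellate cell markers and 7.45 to 13.9 against 7.66 to 10.7 CPM for 10 macrophage markers. Tek was at 0 in both DMSO libraries, Dcn and Lum were at 0 in both verteporfin libraries, and Ngfr, Pdgfrb, Lrat and Lum were at 0 in both DMSO libraries. The part of other cell types in the results was not tested, and in whole cultures fewer cells of a type cannot be told apart from less RNA per cell.

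The methods name male mice, but sex-linked transcripts set all 4 libraries apart from the other 21 hepatocyte libraries. Xist, the RNA that silences the second X chromosome of female cells, had 569 and 705 counts with verteporfin and 792 and 987 with DMSO, against 0 or 1 in the others. The Y-linked genes went the other way. Ddx3y had at most 1 count in the 4 libraries and 158 to 993 in the others, and Eif2s3y had 0 in the 4 and 30 to 183 in the others. Both arms share this pattern, whereas any difference between these 4 libraries and the untreated ones cannot be told apart from a difference in sex or animals. Between DMSO and untreated cultures at 1 week only 4 of 11219 genes (0.0357%) passed the thresholds below in edgeR's quasi-likelihood test, and all 4 were sex-linked: Xist was higher, and Uty, Ddx3y and Eif2s3y were lower. At an unadjusted p under 0.05 there were 552 genes, and DESeq2 called 47. Without untreated replicate 3 the edgeR count was 0, without untreated replicates 1 and 2 it was 27 and 30, and without either DMSO library it was 1.

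With verteporfin, Derl3 of the ER degradation machinery was 55.9-fold higher, single enzymes of fatty acid and drug metabolism such as Cyp4a10, Acot1, Cyp2b10 and Adh1 were higher, and the desaturase gene Scd1, the acute phase gene Hp and the immediate early gene Egr1 were lower. A gene was called when its false discovery rate (FDR) was under 0.1 and its log2 fold change beyond 2 in size. In all, 28 of the 10400 genes (0.269%) were called, 25 higher (0.24%) and 3 lower (0.0288%). The FDR alone was passed by 39 genes (0.375%), of which 33 (0.317%) rose and 6 (0.0577%) fell. Below, a single gene that rose, fell, or kept, lost or gained its call is judged by the FDR alone. Both verteporfin libraries lay above both DMSO libraries for 2191 genes (21.1%) and below them for 1949 (18.7%). The scaling centres the distribution near 0, so the median log2 fold change of −0.004 and the 49.6% of genes with a positive value are reference points for the lists and not results, and the 5th and 95th percentiles were −0.80 and 0.79. With 2 libraries a side the fit had 2 residual degrees of freedom, and its count depended on single libraries: it was 33 without verteporfin replicate 1, with 18 of the 28 genes among them, 106 without verteporfin replicate 2, 63 without DMSO replicate 1 and 43 without DMSO replicate 2. In the same order the 39 genes past the FDR alone became 84, 366, 195 and 85. The excess of rises also depended on the setting. Without verteporfin replicate 2 the split was 178 higher and 188 lower, without DMSO replicate 1 it was 97 and 98, without verteporfin replicate 1 it was 56 and 28, and without DMSO replicate 2 it was 52 and 33. All 39 genes kept their direction under each of the 12 alternative settings that tested them. The 39 were chosen on these same libraries, so their kept direction is no separate support. Acot1 and Cyp4a10 passed the FDR in every setting that gave them one and kept at least 2 libraries in each group. In edgeR's test with all 25 hepatocyte libraries Derl3 (FDR 0.278), Tff1 (0.278), Cdo1 (0.278), Adh1 (0.505) and Egr1 (0.503) did not pass. With DMSO and untreated controls together Derl3 passed (FDR 0.00255), and Tff1 (0.132), Cdo1 (0.207), Adh1 (0.461) and Egr1 (0.312) did not. Cyp2b10, Scd1 and Hp passed in the former fit but not in the latter.

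**Figure D1:**
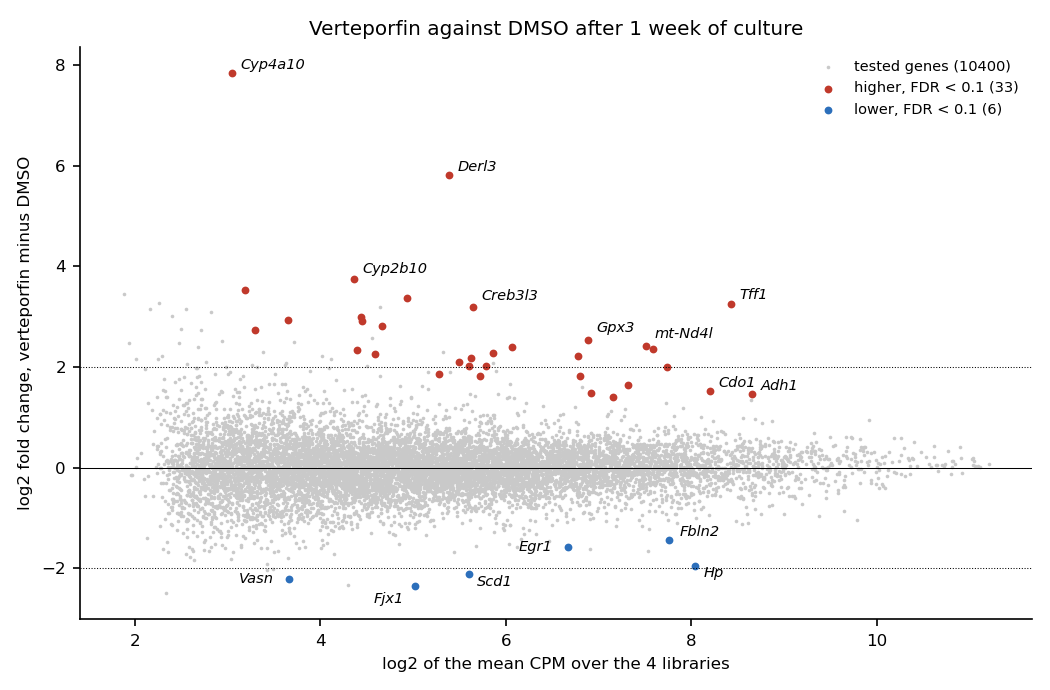
Log2 fold change of verteporfin over DMSO against the log2 of the mean CPM for the 10400 tested genes. Red points mark the 33 genes that rose and blue points the 6 that fell at an FDR under 0.1. The dotted lines mark log2 fold changes of 2 and −2. Cyp4a10 and Derl3 lie farthest above 0, and some grey points, such as mt-Tl2 (log2 3.19, FDR 0.208), lie beyond coloured points of a like level.

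Some genes that process fatty acids were among those that rose. Cyp4a10, the fatty acid omega-hydroxylase that is a standard target of the nuclear receptor PPARα, had 32 and 23 counts with verteporfin and 0 in both DMSO libraries (FDR 0.0238). Against the floor of 3 counts over the DMSO group it was at least 19.7-fold higher. Reads of Cyp4a10 may be shared with near-identical members of its family. Acot1, a cytosolic thioesterase that releases fatty acids from coenzyme A, had 105 and 72.8 CPM against 24.1 and 19.2 CPM and rose 4.08-fold (log2 2.03, SE 0.33, FDR 0.0465). Its mitochondrial paralog Acot2 had 52.5 and 37.0 CPM against 2.41 and 9.84 CPM (log2 2.81, SE 0.50, FDR 0.0768, with 4.15 without DMSO replicate 2 and 2.17 without DMSO replicate 1), and the split of reads between these close copies is uncertain. Fabp4, a fatty acid carrier best known from adipocytes and macrophages, had 29.0 and 50.9 CPM against 6.63 and 9.84 CPM (log2 2.25, SE 0.41, FDR 0.0874). In each of these genes the lower verteporfin library was above the higher DMSO library.

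The list of fatty acid oxidation and ketogenesis genes as a whole had a median near that of all genes. Of its 27 tested members 3 rose, 0 fell and 15 had a positive value, with a median log2 fold change of 0.04 beside −0.004 for all genes. Cyp4a10 and Acot1 were among the 3 that rose. Cpt1a, the carnitine transferase that admits long-chain fatty acids to mitochondria, had 111 and 123 CPM against 130 and 107 CPM (log2 −0.03, SE 0.26, FDR 0.983), and its libraries overlapped. Among 22 tested genes of lipid droplets, lipoproteins and lipid transport, Fabp4 alone passed and the median was 0.08. Plin2, which coats lipid droplets and was picked after its values were seen, had 719 and 413 CPM against 354 and 253 CPM (log2 0.89, SE 0.30, FDR 0.403).

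Fat synthesis moved the other way at 1 gene. Scd1, the desaturase that turns stearate into oleate, had 31 and 30 counts with verteporfin and 133 and 149 with DMSO (19.2 and 17.3 against 80.2 and 77.2 CPM). The replicates agreed closely, and Scd1 fell 4.33-fold (log2 −2.11, SE 0.30, FDR 0.0302). Of the 18 tested genes of fatty acid and triglyceride synthesis it was the only one past the FDR, 11 had a negative value, and the median was −0.18. Fasn, the fatty acid synthase itself, had 49.4 and 41.0 CPM against 70.5 and 60.1 CPM (log2 −0.54, SE 0.29, FDR 0.616).

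Cholesterol synthesis and uptake genes, which SREBP2 controls together, were the list with the lowest median. Of 24 tested members 22 had a negative value. For 16 (66.7%) both verteporfin libraries lay below both DMSO libraries, beside 18.7% of all genes. The median log2 fold change was −0.64 and ran from −0.73 to −0.49 over the alternatives. None of the members passed the FDR in the main edgeR fit. Summed over the list, the level was 1670 and 1660 CPM with verteporfin and 2470 and 2520 CPM with DMSO. Msmo1, among the most counted members, acts late in the pathway. Msmo1 had 213 and 191 CPM against 280 and 323 CPM (log2 −0.58, SE 0.23, FDR 0.49). Further members were picked after their values were seen. Hmgcs1, the cytosolic synthase that feeds the pathway, had 92.7 and 127 CPM against 228 and 261 CPM (log2 −1.16, SE 0.26, FDR 0.169). Hmgcs1 passed with DESeq2 (FDR 0.0288) and, in edgeR, without the low-count filter (FDR 0.00495) and with a replicate block (FDR 0.000592). It did not pass in the other alternatives that kept at least 2 libraries in each group. Idi1, which isomerizes the 5-carbon building block, had 3 and 6 counts against 16 and 19 (log2 −1.84, SE 0.54, FDR 0.32). The exceptions were Ebp at 0.13 and Fdps at 2.29. Fdps, which joins these building blocks, had 169, 50, 35 and 12 counts in verteporfin replicates 1 and 2 and DMSO replicates 1 and 2. Verteporfin replicate 1 thus carried much of its value (log2 2.29, SE 0.64, FDR 0.286, and 1.09 without that library). In edgeR Fdps passed without the low-count filter (FDR 4.62e-06) and with a replicate block (FDR 3.6e-05). It did not pass in the other alternatives that kept at least 2 libraries in each group.

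The ER gave 1 large difference within a list that otherwise moved little. Derl3, a derlin of the membrane complex that extracts misfolded proteins from the ER for degradation, had 142 and 133 counts with verteporfin and 2 and 3 with DMSO (87.7 and 76.9 against 1.21 and 1.55 CPM). Untreated cultures at 1 week had 2.42 to 4.74 CPM. The difference of 55.9-fold (log2 5.81, SE 0.44, FDR 0.000874) was the largest among the tested genes with counts in both groups, although the DMSO counts are at or below the floor of 3 and make its exact size uncertain. Under the alternatives its log2 fold change ran from 4.88 to 5.98. Derl3 did not pass in edgeR's test with all 25 hepatocyte libraries in the fit (FDR 0.278). The list of ER chaperones and ER-associated degradation genes had 32 tested members. Derl3 was the only one past the FDR. The median was 0.18, and 24 members had a positive value. For 11 members (34.4%) both verteporfin libraries were above both DMSO libraries, and for 0 they were below. Over all genes these shares were 21.1% and 18.7%. Hspa5, the main ER chaperone, had 1080 and 999 CPM against 829 and 729 CPM (log2 0.41, SE 0.20, FDR 0.586). Creld2, an ER stress gene picked after its values were seen, had 51.9 and 57.8 CPM against 18.7 and 26.4 CPM (log2 1.27, SE 0.32, FDR 0.218). Both sets of libraries were separate for these genes without passing the test.

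Promoters of ER chaperone genes carry the ER stress response element (ERSE), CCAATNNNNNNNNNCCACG, in which N is any base and which is read by ATF6 with NF-Y. The 250 bases before the start of 3 of these genes are shown, from RefSeq on GRCm38.p6, to set the promoter of the most changed gene beside that of the classical chaperone and of Creld2. Capitals mark the ERSE on either strand, and all of these promoters lie on the + strand.
Derl3 (chr10:75893148-75893397): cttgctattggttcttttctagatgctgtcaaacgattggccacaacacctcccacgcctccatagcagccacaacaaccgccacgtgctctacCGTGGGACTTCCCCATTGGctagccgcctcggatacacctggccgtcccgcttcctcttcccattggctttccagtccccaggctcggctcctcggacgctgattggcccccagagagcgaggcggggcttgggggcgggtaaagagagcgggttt
Creld2 (chr15:88819396-88819645): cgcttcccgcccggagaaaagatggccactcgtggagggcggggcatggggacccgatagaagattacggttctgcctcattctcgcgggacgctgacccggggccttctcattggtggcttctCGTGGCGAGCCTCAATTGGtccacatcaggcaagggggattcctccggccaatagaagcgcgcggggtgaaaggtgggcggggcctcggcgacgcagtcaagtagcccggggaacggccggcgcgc
Hspa5 (chr2:34771840-34772089): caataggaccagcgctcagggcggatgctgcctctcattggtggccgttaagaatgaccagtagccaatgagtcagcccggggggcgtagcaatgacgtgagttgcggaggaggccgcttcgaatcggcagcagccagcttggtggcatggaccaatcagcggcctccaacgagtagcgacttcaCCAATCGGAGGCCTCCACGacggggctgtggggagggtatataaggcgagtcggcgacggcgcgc
The element lies 156 bases before the start of Derl3, 126 before that of Creld2 and 65 before that of Hspa5. Searched on both strands over promoters of 300 bases, 250 before and 50 after the start, it was in 37 of 27025 genes (0.137%). Of the ER list 24 genes had a promoter in the table and 9 of them held the element: Calr, Canx, Creld2, Derl3, Dnajc3, Hsp90b1, Hspa5, Pdia6 and Syvn1. Their log2 fold changes ran from −0.09 in Hsp90b1 to 5.81 in Derl3, and Derl3 alone passed the FDR. Of the 33 genes that rose 21 had a promoter in the table, and Derl3 was the only one of them with the element. A match describes the letters only. For the cholesterol list, the sterol response element (SRE) was searched as TCACNCCAC on both strands. It was in 388 of the 27025 genes (1.44%) and in 1 of the 17 list genes with a promoter in the table, Hmgcs1, whose 250 bases before the start on the + strand are shown with the element in capitals 137 bases before the start.
Hmgcs1 (chr13:119690101-119690350): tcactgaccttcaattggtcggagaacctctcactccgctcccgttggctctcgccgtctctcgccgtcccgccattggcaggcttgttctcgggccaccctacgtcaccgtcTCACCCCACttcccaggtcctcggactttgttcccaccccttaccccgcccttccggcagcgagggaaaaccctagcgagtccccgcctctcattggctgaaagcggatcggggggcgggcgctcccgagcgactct

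Another branch of the ER stress response, in which PERK halts translation and ATF4 turns on amino acid and redox genes, was read from 29 tested ATF4 targets. None passed the FDR, 21 had a positive value, and the median was 0.30 (0.11 to 0.41 over the alternatives). For 14 of them (48.3%) both verteporfin libraries were above both DMSO libraries, and for 3 (10.3%) below, beside 21.1% and 18.7% of all genes. Ddit3, which encodes the pro-apoptotic factor CHOP, had 58 and 34 counts against 16 and 13 (log2 1.75, SE 0.43, FDR 0.211, and 1.25 without verteporfin replicate 1). Atf4 had 629 and 498 CPM against 532 and 310 CPM (log2 0.41, SE 0.28, FDR 0.706), with overlapping libraries. The members with the most counts differed little, Psat1 by 0.11 and Gars by 0.17. Psat1 makes serine and Gars loads glycine onto its tRNA.

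Creb3l3, an ER-anchored transcription factor of hepatocytes that is cut free under metabolic stress and drives lipid and fasting genes, belongs to the same organelle. It had 164 and 138 counts with verteporfin and 16 and 19 with DMSO (101 and 79.8 against 9.65 and 9.84 CPM). Creb3l3 rose 9.17-fold (log2 3.20, SE 0.33, FDR 0.00713) and was the only 1 of 18 tested hepatocyte transcription factor genes past the FDR. The median of that list was 0.11, and −0.09 without DMSO replicate 2, and Hnf4a, the factor that maintains hepatocyte identity, had 132 and 203 CPM against 194 and 220 CPM (log2 −0.32, SE 0.27, FDR 0.768).

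**Figure D2:**
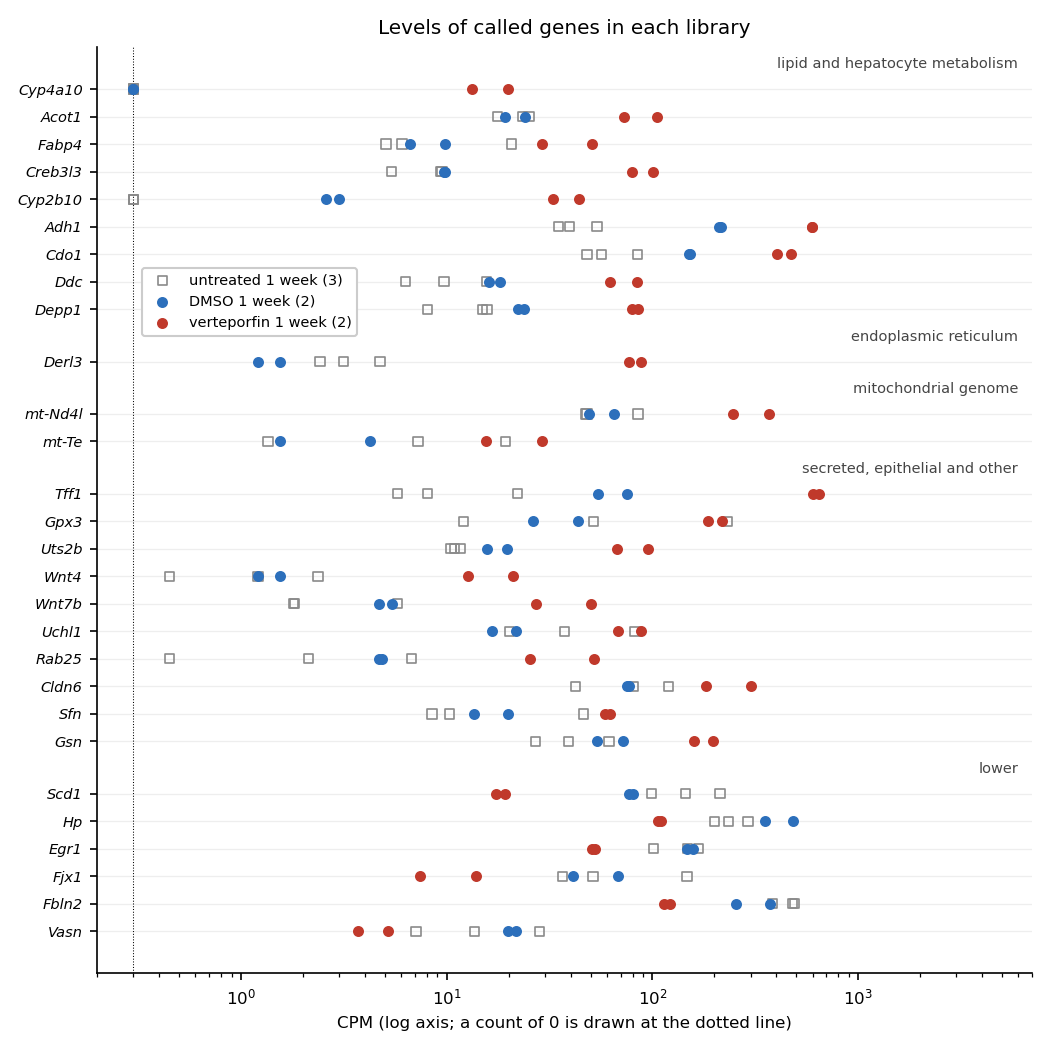
CPM of genes past the FDR, whatever their fold change, in each library on a log axis. Verteporfin is red, DMSO blue and untreated cultures grey squares, all at 1 week, with a count of 0 drawn at the dotted line. Derl3 sits at 76.9 and 87.7 CPM with verteporfin and under 5 CPM in the other libraries, and Scd1 at 17.3 and 19.2 CPM below the other libraries.

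Transcripts of the mitochondrial genome, which encodes 13 proteins of the respiratory chain with its own rRNAs and tRNAs, differed at a few short genes. They made up 2.50% and 2.29% of the counts with verteporfin and 2.23% and 1.93% with DMSO. Of the 15 tested rRNA and protein genes 14 had a positive value, with a median of 0.17, and 1 passed. That gene was mt-Nd4l, a small membrane subunit of complex I. It had 596 and 426 counts with verteporfin and 108 and 95 with DMSO, and it rose 5.34-fold (log2 2.42, SE 0.30, FDR 0.0129, and 2.10 without verteporfin replicate 1). Gm10222, a nuclear pseudogene at chr1:24612407-24612700 on GRCm38, rose alike, with 625 and 444 against 112 and 112 counts (log2 2.35, SE 0.29, FDR 0.0129). All 294 bases of Gm10222 are found in the 297 bases of mt-Nd4l, and over the 49 libraries mt-Nd4l had 0.973 counts for each count of Gm10222, so the pair cannot be separated. Summed, they had 1221 and 870 against 220 and 207 counts, and the log2 ratio of the mean CPM was 2.39. In the genome mt-Nd4l is read into 1 message with mt-Nd4, but the counts of mt-Nd4 reached 91.1% of the limit described next, so its values cannot show whether it moved with mt-Nd4l. It had 3689 and 3733 against 3634 and 3492 counts (log2 0.14, SE 0.19, FDR 0.871, and 0.28 after correction for shared UMIs). Gm28439, a pseudogene whose 876 bases lie within mt-Nd4, had 1110 and 795 against 429 and 366 counts (log2 1.34, FDR 0.136).

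High mitochondrial counts were limited by the UMI. With 6 random bases there are 4096 UMI sequences, and mt-Rnr2 reached 4071 to 4086 of them in every library, up to 99.8%, so its log2 fold change of 0.08 says nothing about a difference. Of the 13 protein genes 8 had over 2048 counts in a library. Corrected for shared UMIs, mt-Nd5 moved from 0.52 to 0.81 and mt-Nd2 from 0.44 to 0.71, while mt-Co1, the catalytic subunit of complex IV, stayed at 0.06 (0.07 before). The protein genes farthest from the limit were mt-Nd4l, mt-Nd3, mt-Atp8 and mt-Nd6. For mt-Atp8 the counts were 232, 117, 106 and 43 (log2 1.29, SE 0.49, FDR 0.48), and for mt-Nd6, which is read from the other strand, they were 171, 116, 258 and 33 (log2 −0.01, SE 0.70, FDR 0.997). The 2 DMSO libraries were too far apart for mt-Nd6 to show a difference in either direction.

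Mitochondrial tRNA genes gave the largest ratios of the organelle at low counts. Of 20 with a count 7 could be tested, all 7 had a positive value, and their median was 2.00. Only mt-Te, the tRNA for glutamate, passed the FDR, with 47 and 27 counts against 7 and 3 (log2 2.94, SE 0.56, FDR 0.0976, and 0.123 without verteporfin replicate 1, with a log2 of 3.77 without DMSO replicate 1). mt-Tl2 had 117, 31, 14 and 3 counts (log2 3.19, SE 0.75, FDR 0.208) and mt-Tm 181, 131, 64 and 21 (log2 1.92, SE 0.49, FDR 0.233). Summed over the tRNA genes the level was 333 and 180 CPM with verteporfin and 107 and 37.8 CPM with DMSO. The groups did not overlap, but the sum was highest in verteporfin replicate 1, and the DMSO libraries also lay well apart from each other. The part of that library in these values was not tested.

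**Figure D3:**
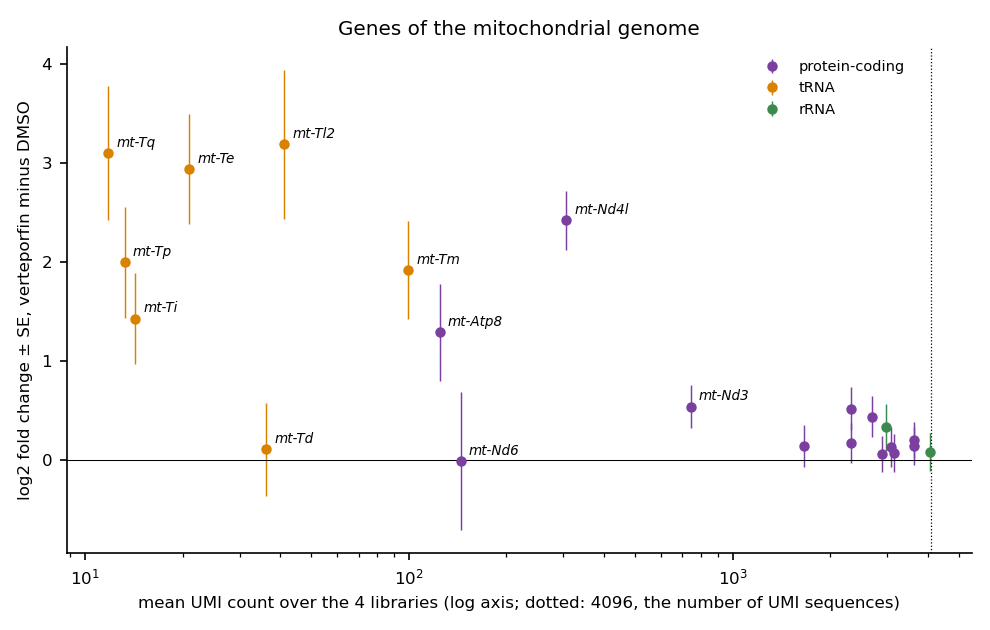
Log2 fold change with its standard error against the mean UMI count (log axis) for the tested genes of the mitochondrial genome, coloured by type, with a dotted line at the 4096 UMI sequences. The genes near the line lie close to 0, and mt-Nd4l and 6 of the 7 tRNA genes lie above 1.

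Nuclear genes of mitochondria had medians near 0. Of 75 tested genes for subunits of oxidative phosphorylation and cytochrome c 0 passed the FDR in edgeR's test, and the median was 0.06. It was −0.03 without verteporfin replicate 1 and −0.01 without DMSO replicate 2. The most counted members were Uqcrq of complex III at 0.08, which was −0.48 without that library, and Atp5g3 of the ATP synthase at −0.25. Citric acid cycle and maintenance genes had a median of −0.05 over 31 genes.

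Enzymes that process drugs and nutrients made up a further group. Cyp2b10, the classical target of the xenobiotic receptor CAR, had 71 and 57 counts with verteporfin and 5 and 5 with DMSO (43.9 and 32.9 against 3.01 and 2.59 CPM). It rose 13.4-fold (log2 3.74, SE 0.43, FDR 0.01), and reads may be shared with close relatives of its family. Adh1, the main alcohol dehydrogenase of liver, had 596 and 594 CPM against 215 and 210 CPM and rose 2.78-fold (log2 1.47, SE 0.21, FDR 0.0308). Together they were the 2 members past the FDR among 14 tested genes of cytochrome P450 and drug oxidation, whose median was 0.24. Of the P450 genes associated with mature hepatocytes, most were too low to be tested. Cyp3a11 had 7 and 9 against 2 and 2 counts, Cyp1a2 had 2 and 2 against 1 and 0 counts (ratio 4.29, exact 95% counting interval 0.424 to 211), Cyp7a1 had 1 count in verteporfin replicate 1 and 0 elsewhere, and Cyp8b1 had 0 counts in all 4 libraries, which allows up to 3 counts in each.

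Cdo1, which starts the breakdown of cysteine to taurine, had 403 and 474 CPM against 151 and 152 CPM and rose 2.87-fold (log2 1.52, SE 0.23, FDR 0.0347). It was the only 1 of 26 tested genes of amino acid breakdown and the urea cycle past the FDR, with a list median of 0.15. Ddc, the decarboxylase that makes dopamine and serotonin, had 62.4 and 83.8 CPM against 18.1 and 16.1 CPM (log2 2.09, SE 0.32, FDR 0.0382). Depp1, a fasting-induced regulator of autophagy downstream of FOXO factors, had 79.7 and 85.0 CPM against 22.3 and 23.8 CPM (log2 1.82, SE 0.29, FDR 0.045). Conjugation enzymes had a median of 0.40 over 19 tested genes with 0 past the FDR in edgeR's test, and the median was −0.01 without verteporfin replicate 2. Their most counted members were Ugt2b35, at 342 and 259 CPM against 172 and 71.5 CPM (log2 1.29, SE 0.37, FDR 0.316), and Ugt2b34 at 0.66, and reads of these glucuronosyltransferases may be shared between them.

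Plasma proteins, the other hallmark of hepatocytes, lay on the opposite side. Of 43 tested genes of secreted carriers, complement and coagulation 34 had a negative value. For 26 (60.5%) both verteporfin libraries were below both DMSO libraries, beside 18.7% of all genes. The median was −0.54 (−0.37 without verteporfin replicate 1). Hp, the haptoglobin that clears free haemoglobin in the acute phase, had 172 and 191 counts with verteporfin and 800 and 682 with DMSO. Hp fell 3.88-fold (log2 −1.96, SE 0.25, FDR 0.017) and was the only member past the FDR. Alb, the albumin gene, had 541 and 726 CPM against 940 and 848 CPM (log2 −0.51, SE 0.22, FDR 0.53). Against DMSO and untreated cultures together Alb was at 0.05, so its direction depended on the control.

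**Figure D4:**
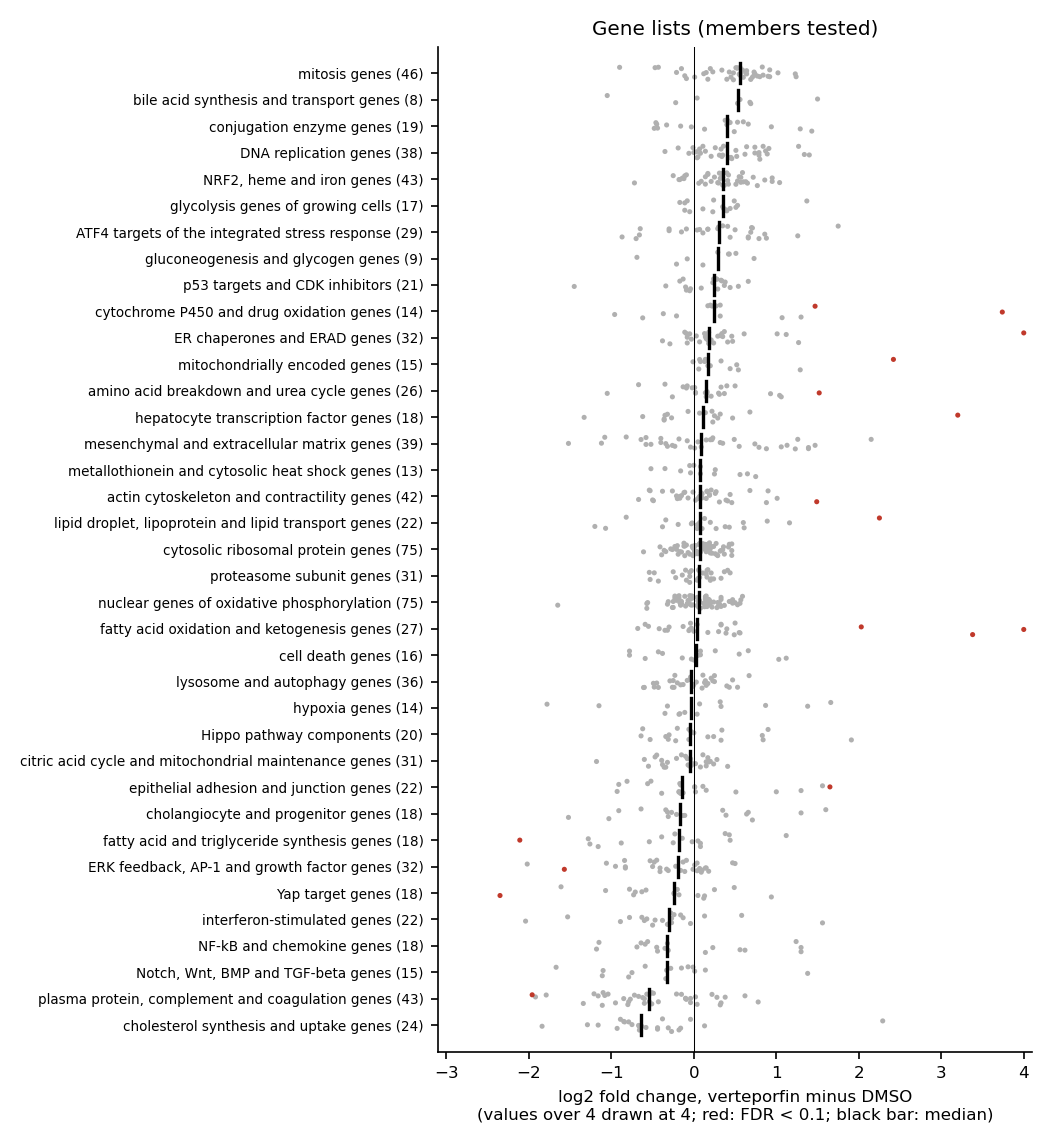
Log2 fold change of every tested member of the 37 gene lists, with the number tested in parentheses, red points past the FDR and a black bar at the median. The medians run from −0.64 for cholesterol synthesis and uptake to 0.56 for mitosis, and 24 of the lists have no red point.

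Yap targets leaned lower without a common fall. Of 18 tested targets 12 had a negative value. For 6 (33.3%) both verteporfin libraries were below both DMSO libraries and for 2 (11.1%) above, beside 18.7% and 21.1% of all genes. The median was −0.24. It was −0.07 without verteporfin replicate 1, −0.03 without DMSO replicate 2 and −0.47 against DMSO and untreated cultures together. Fjx1, a secreted regulator of cell polarity and growth, was the member past the FDR, with 12 and 24 counts with verteporfin and 68 and 131 with DMSO (7.41 and 13.9 against 41.0 and 67.9 CPM). It fell 5.10-fold (log2 −2.35, SE 0.41, FDR 0.0725). Ccn1 had 90.2 and 250 CPM against 146 and 359 CPM (log2 −0.58, SE 0.48, FDR 0.762), and Ccn2 had 63.6 and 174 CPM against 136 and 256 CPM (log2 −0.73, SE 0.44, FDR 0.661). In both matricellular genes the groups overlapped, since replicate 2 was the higher library of each group. At either replicate number the verteporfin library was below the DMSO library. In edgeR's test with a replicate block Ccn1 (−0.61, FDR 0.0576) and Ccn2 (−0.81, FDR 0.0193) passed. Neither passed in the other alternatives that kept at least 2 libraries in each group, and whether the numbers mark pairs is not stated. Ccn1 and Ccn2 were at −0.02 and −0.18 without verteporfin replicate 1, and at −1.49 and −1.63 without verteporfin replicate 2. Yap1 itself had 106 and 186 CPM against 134 and 169 CPM (log2 −0.06, SE 0.30, FDR 0.972). The TEAD motif GGAATG, searched on both strands, was in the promoters of 7 of 15 Yap targets (46.7%), of 3 of the 21 genes that rose and had a promoter in the table (14.3%), and of 16.6% of all genes.

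Vim, the mesenchymal intermediate filament, had 268 and 533 counts with verteporfin and 845 and 997 with DMSO (166 and 308 against 510 and 516 CPM). Both verteporfin libraries were below both DMSO libraries, and the difference of −1.12 (SE 0.29) did not pass in the main edgeR fit (FDR 0.239). It passed with DESeq2 (FDR 0.0742) and, in edgeR, without the low-count filter (FDR 0.000795) and with a replicate block (FDR 0.000868). With RLE size factors, thinning, corrected UMIs, untreated cultures added to the controls or all 25 hepatocyte libraries it did not pass. The difference was −0.75 without verteporfin replicate 1 and −1.64 without verteporfin replicate 2. Prom1, a progenitor surface protein, had 10 and 9 counts against 16 and 26 (log2 −1.03, SE 0.46, FDR 0.536). Mesenchymal and matrix genes had a median of 0.09 over 39 tested genes, with 0 past the FDR in the main edgeR fit. The list was split, with values from −1.52 to 2.15. Both verteporfin libraries were above both DMSO libraries for 14 members (35.9%) and below for 10 (25.6%), beside 21.1% and 18.7% of all genes. Cholangiocyte and progenitor genes had a median of −0.17 over 18, with 7 (38.9%) above and 7 (38.9%) below in this way. Among them Krt19, a bile duct keratin, was at 0.35 (FDR 0.765). The junction genes Cdh1, Ocln and Cldn3 differed by −0.17, −0.13 and 0.01, and Lamb1, a laminin chain, had 40, 8, 13 and 18 counts (log2 0.74, and −0.90 without verteporfin replicate 1).

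The remaining genes that fell encode a growth-responsive factor and proteins of the cell surface and matrix. Egr1, the immediate early factor downstream of ERK, had 52.5 and 50.9 CPM against 148 and 157 CPM and fell 2.98-fold (log2 −1.57, SE 0.26, FDR 0.05). It was the only 1 of 32 tested genes of ERK feedback, AP-1 and growth factors past the FDR, 21 had a negative value, and the median was −0.19. Fbln2, a matrix glycoprotein, had 122 and 114 CPM against 374 and 256 CPM (log2 −1.43, SE 0.26, FDR 0.0879, and 0.114 without DMSO replicate 1). Vasn, a membrane protein that traps TGF-beta, had 6 and 9 counts against 33 and 42 (log2 −2.21, SE 0.42, FDR 0.0976, and 0.107 without verteporfin replicate 1), and its call was kept in 5 of 12 alternatives.

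Other genes that rose, which no list gathers as a group, included several for secreted proteins. Tff1, a trefoil peptide of mucosal surfaces, had 1041 and 1046 counts with verteporfin and 124 and 105 with DMSO. Tff1 rose 9.60-fold (log2 3.26, SE 0.26, FDR 0.000874). Gpx3, the secreted glutathione peroxidase of plasma, had 217 and 187 CPM against 43.4 and 26.4 CPM (log2 2.53, SE 0.31, FDR 0.0129). The untreated libraries ranged from 12.1 to 230 CPM for this gene and so spanned both groups. Uts2b, a vasoactive peptide, had 95.1 and 67.1 CPM against 15.7 and 19.7 CPM (log2 2.18, SE 0.33, FDR 0.0366).

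Both Wnt ligands that rose did so at low counts. Wnt7b had 81 and 47 counts against 9 and 9 (log2 2.91, SE 0.44, FDR 0.0366), and Wnt4 had 34 and 22 against 2 and 3 (log2 3.52, SE 0.58, FDR 0.05). The list of Notch, Wnt, BMP and TGF-beta genes lay lower, with 12 of 15 tested members negative and a median of −0.33, which was 0.04 without DMSO replicate 2. Among epithelial genes, Cldn6, a tight junction protein of immature epithelia, had 300 and 183 CPM against 77.2 and 75.6 CPM (log2 1.65, SE 0.29, FDR 0.0768). Rab25, which recycles membrane in polarized cells, had 84 and 44 counts against 8 and 9 (log2 3.00, SE 0.47, FDR 0.0404, and 2.40 without verteporfin replicate 1), and Rab27b, which docks secretory vesicles, had 35 and 22 against 4 and 5 (log2 2.73, SE 0.52, FDR 0.0976, and 0.318 without verteporfin replicate 1). Sfn, the epithelial 14-3-3 sigma, and Gsn, which severs actin, rose by 1.86 (FDR 0.0768, and 0.12 without DMSO replicate 2) and 1.49 (FDR 0.0879, and 0.104 without DMSO replicate 1). Other genes that rose were Uchl1, a deubiquitinase (2.02, FDR 0.045), Glipr1 (2.39, FDR 0.0238), Fam129b (2.01, FDR 0.0347), Lce1h (2.27, FDR 0.0513), Serpinb9b, a protease inhibitor (2.34, FDR 0.0841), Ctla2a (2.21, FDR 0.0879), Selenow, a selenoprotein (1.40, FDR 0.0961), and Prss23, a serine protease (1.83, FDR 0.0976). Selenow kept its call in 7 of 12 alternatives, with an FDR of 0.127 without verteporfin replicate 1 and a difference of 0.52 against DMSO and untreated cultures together, and 1 untreated library had 428 CPM against 177 and 239 CPM with verteporfin. Prss23 kept its call in 6 of 12, with an FDR of 0.112 without DMSO replicate 2 and a difference of 2.45 without DMSO replicate 1. Without DMSO replicate 2 Serpinb9b was at 3.02, and without verteporfin replicate 1 Ctla2a was at 1.6 and Fam129b at 1.56. Against DMSO and untreated cultures together Uchl1 was at 1.12 (FDR 0.86), Fam129b at 1.26 (FDR 0.86) and Ctla2a at 1.23 (FDR 0.874). Prss23 was at 1.47 there, and Glipr1, Lce1h and Serpinb9b were at 3.23, 2.52 and 2.63. Untreated cultures had 73.2 to 377 CPM of Fam129b, beside 432 and 250 CPM with verteporfin. Lce1h, Serpinb9b and Ctla2a have close copies, so that their counts are uncertain.

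Lists without a called member could still lie to 1 side. Of 46 tested mitosis genes 39 had a positive value. In 28 (60.9%) both verteporfin libraries were above both DMSO libraries, beside 21.1% of all genes. The median was 0.56 (0.57 without verteporfin replicate 1). Cdk1, the kinase that starts mitosis, had 546 and 551 CPM against 283 and 435 CPM (log2 0.60, SE 0.24, FDR 0.499). Mki67, a marker of cycling cells, had 797 and 384 CPM against 516 and 409 CPM (log2 0.34, and −0.28 without verteporfin replicate 1). Of 38 DNA replication genes 33 had a positive value, with a median of 0.40, and Rrm2, a subunit of ribonucleotide reductase, had 673 and 723 CPM against 469 and 633 CPM (log2 0.33, SE 0.22, FDR 0.69). Cdkn1a, the cell cycle inhibitor p21, was at 0.28 (FDR 0.748). Of 43 NRF2, heme and iron genes 35 had a positive value, and the median was 0.35. In 25 of them (58.1%) both verteporfin libraries were above both DMSO libraries, beside 21.1% of all genes. Hmox1, the heme oxygenase, had 197 and 180 CPM against 127 and 112 CPM (log2 0.65, SE 0.24, FDR 0.461), and Hamp, which encodes the iron hormone hepcidin, had 2260 and 2110 against 1740 and 1490 CPM (log2 0.42, SE 0.19, FDR 0.54). The counts of Hamp, 3663 and 3642 against 2888 and 2879, are near the 4096 UMI sequences, and corrected for shared UMIs its difference was 0.95 (FDR 0.217). Picked after their values were seen, the glutathione transferase gene Gstm1 had 1280 and 1270 CPM against 608 and 707 CPM (log2 0.95, SE 0.20, FDR 0.156), and the sulfiredoxin gene Srxn1 had 379 and 335 CPM against 194 and 222 CPM (log2 0.77, SE 0.23, FDR 0.319).

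On the lower side, 19 of 22 tested interferon-stimulated genes had a negative value, and the median was −0.30. In 12 of them (54.5%) both verteporfin libraries were below both DMSO libraries, beside 18.7% of all genes. B2m of the MHC class I complex was at −0.47 (FDR 0.621). Genes of NF-kB and chemokines had a median of −0.33, which was 0.02 without verteporfin replicate 1 and 0.01 without DMSO replicate 2. Heat shock genes, lysosome and autophagy genes, proteasome subunits, cell death genes and hypoxia genes had medians of 0.08, −0.03, 0.06, 0.03 and −0.03. None of these lists held a gene past the FDR in edgeR's test. Further lists had medians of −0.05 (Hippo components), 0.54 (bile acid synthesis and transport, and 0.13 without verteporfin replicate 2), 0.29 (gluconeogenesis and glycogen), 0.35 (glycolysis), 0.24 (p53 targets and CDK inhibitors), 0.08 (actin cytoskeleton), −0.14 (junctions) and 0.07 (cytosolic ribosomal proteins). In 14 of the 37 lists the median changed sign under at least 1 alternative. Over all 10400 genes 961 had an unadjusted p under 0.05, and at an FDR under 0.1 without a fold threshold DESeq2 called 79 genes.

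The genes that differed were placed on the time course of untreated culture, whose libraries differ from these 4 in the sex-linked transcripts given above. Of 10519 genes tested between untreated cultures at 1 week and fresh hepatocytes, 1214 (11.5%) were called higher and 1369 (13%) lower. Of the 33 genes that rose with verteporfin, 11 were among those lowered by culture, 10 among those raised, 3 were not called and 9 were not tested there. Of the 6 that fell, 2 were lowered, 2 raised and 2 not called. Genes lowered by culture were positive with verteporfin in 56.6% of 808 cases with a median of 0.09, and genes raised by culture in 48.1% of 1157 cases with a median of −0.03, beside 49.6% for all genes.

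Among the genes lowered by culture, Cyp4a10 went from 499 to 885 CPM in the 3 fresh libraries to 0 in all 3 untreated libraries at 1 week, beside 13.3 and 19.8 CPM with verteporfin. Creb3l3 went from 916 to 1300 CPM to 5.39 to 9.47 CPM, and Adh1 from 3320 to 4490 CPM to 35.0 to 53.8 CPM. With verteporfin all 3 genes lay between the fresh and the untreated values, and with DMSO so did Adh1 and, just above the untreated range, Creb3l3 (9.65 and 9.84 CPM). Derl3 had 10.2 to 169 CPM in fresh hepatocytes, a range that spans its 2 verteporfin values. The 2 metabolic genes that fell, Scd1 and Hp, also decline in culture: Scd1 went from 2500 to 4290 CPM to 98.8 to 213 CPM, and Hp from a mean of 2150 CPM to a mean of 242 CPM.

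Other genes that rose are barely present in fresh liver cells. Tff1 had at most 1.05 CPM in fresh cells, a mean of 308 CPM at 4 days and 5.75 to 22.0 CPM at 1 week, so its 605 and 643 CPM with verteporfin exceeded every mean of the time course. Uts2b had 0 in fresh cells, 10.5 to 11.7 CPM at 1 week and a mean of 116 CPM at 2 weeks. Cldn6 had 0 in fresh cells and 42.2 to 120 CPM at 1 week. Fjx1 and Fbln2, which fell, were at 0 in fresh cells and at 36.5 to 147 and 383 to 491 CPM at 1 week.

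**Figure D5:**
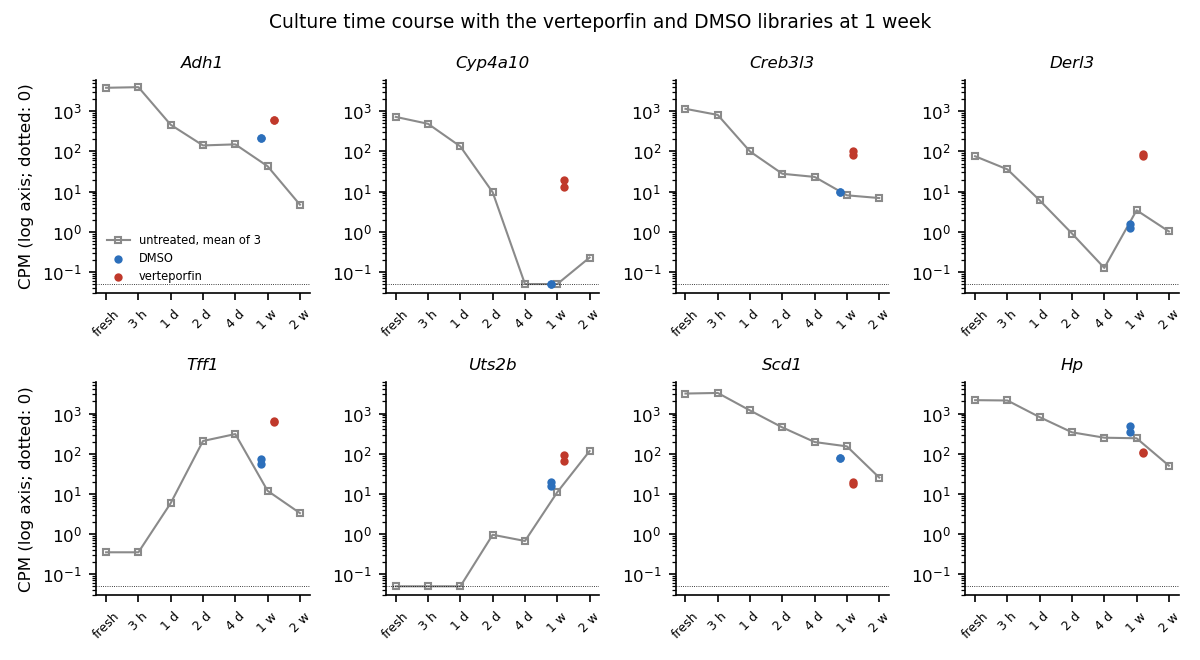
CPM on a log axis for 8 genes in untreated culture (grey, mean of 3 libraries from fresh cells to 2 weeks), with the DMSO (blue) and verteporfin (red) libraries at 1 week and a value of 0 drawn at the dotted line. Adh1, Cyp4a10 and Creb3l3 drop from the fresh level and are higher with verteporfin than in the other 1-week libraries, whereas Scd1 and Hp are lower.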

How the data were processed

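Libraries were made with the CEL-seq2 protocol, in which only 3′ ends are sequenced and each captured molecule carries 6 random bases. The values are counts of these molecules per gene, deposited as 1 table by the authors without normalization. Per the submitters' processing notes bcl2fastq 2.20, Bowtie2 2.3.1, HTSeq 0.6.0 and GRCm38 were used, and the annotation release is not given in the sources used here. Each column was assigned by its label, and 0 columns of sample values were left unused. Gene symbols and coordinates come from GENCODE on GRCm38 and promoters from RefSeq on GRCm38.p6.

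Verteporfin and DMSO were compared with edgeR 4.0.16 in R 4.3.3 (quasi-likelihood F-test, TMM factors, filterByExpr with a minimum count of 10 and a total of 15, Benjamini-Hochberg FDR under 0.1, absolute log2 fold change over 2, 2-sided), fitted on the 4 libraries without a block. CPM use TMM factors over the 25 hepatocyte libraries, within 1.2% of the scale of the 4. Replicates differed beyond sampling noise (chi-square per degree of freedom 6.03 and 5.70), so none was counted as a repeat deposit. Intervals and floors (3 counts) cover counting error only. On simulated counts for 10181 genes, 88 of 97 genes changed by a log2 of 2 and 95 of 96 changed by 3 passed the FDR, with 13 false calls. The simulation gave every gene the same biological coefficient of variation (0.218) and held no outlying library or run. It therefore checks that the fit works and does not measure recovery in these data.

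Genes were named by a rule: in each direction the 12 called genes of lowest p, genes the study names, list anchors, and in each list up to 4 members past the FDR or else the 2 most counted. As exceptions, genes past the FDR were named beyond these, and 8 (Hmgcs1, Fdps, Ebp, Idi1, Creld2, Gstm1, Srxn1 and Plin2) were picked after their values were seen. Some genes that the rule yields are not reported here. The comparison, the 37 gene lists and the tests were chosen with earlier results of these data known, and no list was tested as a set. Alternatives were RLE size factors, DESeq2 1.42.0, no low-count filter, all 25 hepatocyte libraries in the fit, a replicate block, untreated cultures added to the controls, counts corrected for shared UMIs, thinning to 1436786 counts, a log2 threshold of 1 and leaving out each library. Alternatives for the culture and the DMSO-against-untreated comparisons, and the sum of a mitochondrial gene with its nuclear copy, were added after seeing the data.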

Additional observations from a re-analysis of the deposited data

How the results depend on the processing

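Past both thresholds, 28 genes were called by edgeR, 24 with RLE size factors, 26 with DESeq2, 90 without the low-count filter, 6 with all 25 hepatocyte libraries in the fit, 14 with DMSO and untreated controls together, and 33 to 106 with 1 library left out. At any fold the 39 became 79 with DESeq2, 254 without the filter, 7 with 25 libraries, 14 with both controls and 84 to 366 with 1 library left out. The replicate numbers were not taken as pairs, since no source used here says that a shared number marks a shared run, and 2 numbers are too few to check. The differences between numbers correlated at 0.445 over 10400 genes between the groups, and with the replicate block 59 genes passed both thresholds and 882 (449 higher, 433 lower) the FDR alone, among them Vim (−1.18, FDR 0.000868), Ccn1 (−0.61, FDR 0.0576), Ccn2 (−0.81, FDR 0.0193) and Hmgcs1 (−1.17, FDR 0.000592). The 14 genes with both controls were all higher. Untreated culture against fresh cells gave 2583 calls and 3907 without the filter, and DMSO against untreated 4 calls, 47 with DESeq2, 101 without the filter and 0 to 30 with 1 library left out.

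Of 1176 values for named genes under alternatives, 999 kept direction and side of the FDR threshold or had no FDR, 80 lost the call, 59 gained it and 38 changed sign. None of the 39 genes past the FDR changed sign, which is no separate support since they were chosen on these same libraries. Of the 39 genes 3, Acot1 and Cyp4a10 among them, passed in every setting that gave an FDR and kept at least 2 libraries in each group. With DMSO and untreated controls together the sign changed for Alb (0.05), Krt19 (−0.02), Ocln (0.06), Cpt1a (0.09), Atp5g3 (0.24), Ldha (0.23), Krt18 (0.11) and Cldn3 (−0.80). Cldn3 was also at −0.0015 with RLE factors, −0.0018 with DESeq2, −0.02 without the filter and −0.03 after thinning, and Id1 at −0.01 without the filter and −0.03 with the replicate block. With 1 library left out the sign changed for Ccn1 (−1.49 to 0.2), Mki67 (−0.28 to 0.78), Lamb1 (−0.9 to 1.51), Cdh1 (−0.37 to 0.0012), Ocln (−0.31 to 0.06), Cldn3 (−0.15 to 0.17), Yap1 (−0.53 to 0.28), Cpt1a (−0.18 to 0.12), mt-Co1 (−0.04 to 0.18), Psat1 (−0.04 to 0.24), Uqcrq (−0.48 to 0.48), Ccng1 (−0.3 to 0.11), Cyp39a1 (−0.62 to 0.29), Ldha (−0.29 to 0.05), Id1 (−0.46 to 0.37) and Ebp (−0.03 to 0.29). The causes were not tested. Of 444 list medians under alternatives 65 moved by more than 1 SD.

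Genes under the floor of 3 counts, about 2 CPM, could not be compared at this depth, and counts near 4096 understate differences of the most abundant transcripts.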
